A study of Mus musculus with 18 samples.

Results

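P4ha1, Banp, Fam65b, Bmf and Crebrf are 5 genes of the mouse liver whose transcripts went up and down with a strong 12 h component over the day. They were taken by name as 5 of the 14451 genes of the deposited table, and they had been chosen by the size of their 12 h term, as measured in these same livers. That term is therefore given as a description, with no test. P4ha1 and Banp were high at ZT1 and again at ZT13, whereas Fam65b, Bmf and Crebrf were lowest at ZT13. The mean was highest at ZT9 for Bmf and at ZT21 for Crebrf, while Fam65b had like means of 4.23 at ZT5 and ZT21. Zeitgeber time (ZT) counts hours from lights on, so ZT1, ZT5 and ZT9 lie in the light and ZT13, ZT17 and ZT21 in the dark.

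RNA sequencing had been carried out on 18 livers of wild-type (WT) male mice, aged 8 to 9 weeks and kept in a cycle of 12 h light and 12 h dark, with 3 livers at each of 6 times 4 h apart. Whole livers were frozen and their polyA RNA was sequenced, and the 3 best RNA samples of the 5 mice in each group were used. Each liver came from its own mouse and was sampled once, so the spread within a time is that between mice. No treatment, mutation or fasted group was compared.

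The circadian clock of liver cells is a feedback loop in which CLOCK and BMAL1 (encoded by Arntl) turn on genes through E-box elements, among them their own repressors. Many liver transcripts follow this loop once a day, and feeding, temperature and glucocorticoid hormones add their own daily inputs. A smaller number of liver transcripts rise and fall with a period of about 12 h, and such rhythms have been described for genes of protein folding and stress responses. Of the genes described here, P4ha1 encodes the catalytic alpha subunit of prolyl 4-hydroxylase, the enzyme that hydroxylates prolines of collagen in the endoplasmic reticulum, and it is a known target of hypoxia-inducible factors. Banp, also known as SMAR1, encodes a nuclear BEN-domain protein that binds a CGCG-containing motif at CpG island promoters. Fam65b, now called Ripor2, encodes an inhibitor of the small GTPase RhoA and is known from lymphocytes. Bmf encodes a BH3-only protein of the BCL2 family, which promotes apoptosis and is held by a dynein light chain until released. Crebrf encodes a regulatory factor that binds CREB3, also called Luman, and leads to its breakdown.

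Values are the authors' normalized reads per 1000000, for which the authors adjusted the library sizes and added 0.5 to each estimated read count. Depth lay between 10268168 and 23242842 estimated reads per liver. The core clock genes followed their labelled times: Arntl was 24.1-fold higher at ZT1 than at ZT9, Nr1d1 74.5-fold higher at ZT5 than at ZT17, Per2 8.42-fold higher at ZT13 than at ZT1, and Dbp 359-fold higher at ZT9 than at ZT1. The Dbp ratio rests on values near the floor, with a lowest value of 0.148, so its size is imprecise. The 8 hepatocyte markers (Alb, Ttr, Apoa1, Cps1, Ass1, Cyp2e1, Hnf4a and Tat) added up to between 72958 and 104446 per liver, as the tissue label says. The 5 genes had between 10.7 estimated reads (Fam65b in its lowest liver) and 710 reads (Crebrf in its highest liver), so no value was at the floor.

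The genes lie on 5 chromosomes. In the GENCODE M21 annotation of GRCm38, P4ha1 (ENSMUSG00000019916) spans chr10:59323296-59373304 on the plus strand, Banp (ENSMUSG00000025316) chr8:121949750-122029258 on the plus strand, and Fam65b (ENSMUSG00000036006) chr13:24582189-24733816 on the plus strand. Bmf (ENSMUSG00000040093) spans chr2:118528757-118549687 on the minus strand and Crebrf (ENSMUSG00000048249) chr17:26715650-26776635 on the plus strand. Of the exon bases of Banp, 252 (3.80%) are shared with Gm27011 on the opposite strand, and whether the counting used strand is not given in the sources used here. Per kb of exon, the mean level over the 18 livers was 3.55 for P4ha1 and 3.55 for Crebrf, 2.01 for Bmf, 1.23 for Banp and 0.257 for Fam65b, in normalized reads per 1000000 and kb.

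RefSeq promoter windows (GRCm38.p6) were found for 4 of the 5 genes, namely 1 for P4ha1, 1 for Crebrf, 3 for Fam65b (as Ripor2) and 3 for Bmf. The 250 bases before the start are shown for 1 window of each, 5′ to 3′ on the strand of the gene, because the genes moved at shared hours and the core clock and hypoxia factors bind short motifs near gene starts. Capitals mark the letters ACGTG, a form of the core of the hypoxia response element, on either strand. The other form, GCGTG, was not searched and is not marked. The capitals also take in the E-box CACGTG, which contains ACGTG on both strands. The windows are P4ha1 at chr10:59323046-59323295 (plus strand), Crebrf at chr17:26715400-26715649 (plus strand), the first Fam65b window at chr13:24581939-24582188 (plus strand) and the second Bmf window at chr2:118549687-118549936 (minus strand).
P4ha1: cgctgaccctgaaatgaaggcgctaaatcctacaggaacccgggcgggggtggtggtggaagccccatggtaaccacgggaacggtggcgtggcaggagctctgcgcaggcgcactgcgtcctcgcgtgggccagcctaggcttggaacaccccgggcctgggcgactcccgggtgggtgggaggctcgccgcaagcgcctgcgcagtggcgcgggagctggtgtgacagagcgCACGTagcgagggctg
Crebrf: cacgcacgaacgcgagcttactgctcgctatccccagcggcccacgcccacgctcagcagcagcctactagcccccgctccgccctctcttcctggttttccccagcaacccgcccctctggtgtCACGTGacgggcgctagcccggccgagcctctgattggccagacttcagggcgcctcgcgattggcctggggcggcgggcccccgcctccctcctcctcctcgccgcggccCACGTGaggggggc
Fam65b: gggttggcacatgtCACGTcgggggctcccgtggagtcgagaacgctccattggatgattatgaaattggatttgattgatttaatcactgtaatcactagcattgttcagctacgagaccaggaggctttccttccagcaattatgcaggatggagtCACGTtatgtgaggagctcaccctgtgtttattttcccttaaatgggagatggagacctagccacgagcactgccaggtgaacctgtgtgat
Bmf: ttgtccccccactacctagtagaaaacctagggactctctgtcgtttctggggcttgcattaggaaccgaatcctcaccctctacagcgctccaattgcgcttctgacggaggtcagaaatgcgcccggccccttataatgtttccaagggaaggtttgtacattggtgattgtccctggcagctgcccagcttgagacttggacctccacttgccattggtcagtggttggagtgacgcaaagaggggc

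The Crebrf window held CACGTG 125 and 14 bases before the start, and CACGTG was found in 6.02% of all 32851 promoter windows of the RefSeq table. The P4ha1 window held ACGTG once, 16 bases before the start, and the first Fam65b window held it 236 and 92 bases before the start. It was also in the third Fam65b window, which is not printed, 136 bases before the start. ACGTG was found in 16.6% of all windows. Windows of P4ha1 and Crebrf were rich in CpG, with 24 and 26 CpG dinucleotides in 250 bases against a median of 6 over all windows, whereas those printed for Fam65b and Bmf had 8 each. The Bmf window held AGGTCA, the core of the ROR element, once, 140 bases before the start, as did 14.0% of all windows. All motifs were searched on both strands of the 250 bases. The others were GAANNTTC (heat shock element core), TGACGTCA (cAMP response element), TTATGTAA (D-box), CTCGCGAG (the core of the BANP motif) and TGTTTAC (FOXO). Those letters were in none of the 8 windows, and were found in 6.69%, 1.55%, 0.819%, 0.761% and 3.17% of all windows, respectively. A match of letters is a description and does not show that a factor binds there.

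P4ha1 had 2 crests, a lower one at ZT1 and a higher one at ZT13. Its normalized values in the 3 livers were 16.0, 16.6 and 14.6 at ZT1, 7.98, 6.16 and 6.18 at ZT5, and 8.90, 6.85 and 7.17 at ZT9. In the dark they were 29.0, 33.6 and 23.0 at ZT13, 21.0, 21.4 and 16.1 at ZT17, and 8.52, 10.3 and 9.33 at ZT21. All livers of ZT13 lay above all livers of the other times, and those of ZT1 and ZT17 overlapped each other but lay above those of ZT5, ZT9 and ZT21. The mean was highest at ZT13, 28.5 ± 5.35 (SD, n = 3), and lowest at ZT5, 6.78 ± 1.05 (SD, n = 3), a ratio of 4.21. In the order of means, ZT21 and ZT9 overlapped, and so did ZT9 and ZT5.

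Banp followed the same hours at a lower level. In the light its livers had 10.4, 11.0 and 10.1 at ZT1, 3.53, 5.29 and 4.91 at ZT5, and 5.66, 5.26 and 5.20 at ZT9. In the dark they had 15.5, 15.2 and 11.2 at ZT13, 9.78, 9.99 and 8.86 at ZT17, and 4.24, 5.51 and 5.58 at ZT21. The livers of ZT13, ZT1 and ZT17 kept this order with no overlap, and all lay above the remaining times, which overlapped one another. The means ran from 14.0 ± 2.42 (SD, n = 3) at ZT13 to 4.57 ± 0.928 at ZT5, a ratio of 3.05.

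**Figure D1:**
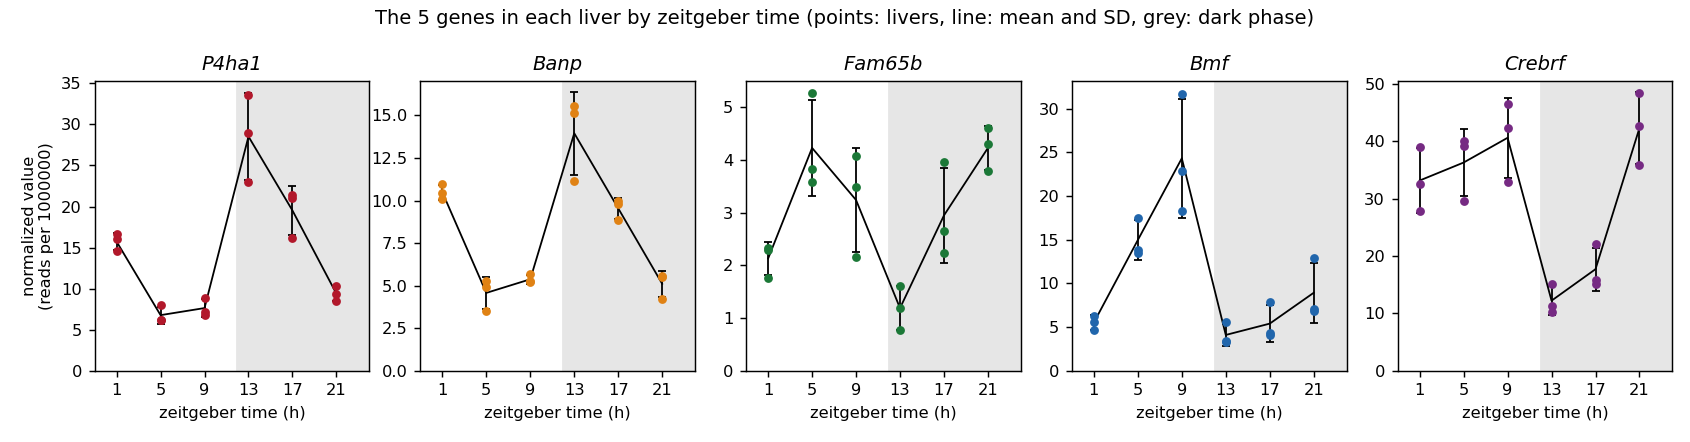
Normalized values in reads per 1000000 (y axis) of each of the 5 genes in the 18 livers by zeitgeber time in hours (x axis), with 1 point for each liver, a line through the means of 3 livers with SD bars, and the dark phase in grey. P4ha1 and Banp have crests at ZT1 and ZT13, while Fam65b, Bmf and Crebrf have their lowest mean at ZT13.

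Crebrf was the gene with the highest values, and its low point was in the early dark. Its livers had 27.8, 32.6 and 39.0 at ZT1, 39.2, 40.0 and 29.6 at ZT5, and 42.4, 46.5 and 32.9 at ZT9. In the dark they had 11.3, 10.3 and 15.1 at ZT13, 15.2, 15.9 and 22.0 at ZT17, and 35.9, 48.3 and 42.6 at ZT21. ZT13 and ZT17 lay below all other times and did not overlap each other, whereas neighbours among ZT21, ZT9, ZT5 and ZT1 overlapped, so the dip at ZT1 was within the spread of its neighbours in level. The means ran from 42.3 ± 6.24 (SD, n = 3) at ZT21 to 12.2 ± 2.52 at ZT13, a ratio of 3.46.

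Bmf had its main crest at ZT9 and a smaller rise at ZT21. Its livers had 4.67, 6.32 and 5.59 at ZT1, 13.5, 17.5 and 13.9 at ZT5, and 18.3, 31.7 and 22.9 at ZT9. In the dark they had 3.3, 3.39 and 5.60 at ZT13, 4.08, 4.28 and 7.84 at ZT17, and 6.90, 12.9 and 7.03 at ZT21. All livers of ZT9 lay above those of ZT5, which lay above those of ZT21, and ZT1, ZT17 and ZT13 overlapped at the bottom. ZT21 lay above ZT1 and ZT13, but its lowest livers were below the highest liver of ZT17. The means ran from 24.3 ± 6.80 (SD, n = 3) at ZT9 to 4.10 ± 1.30 at ZT13, a ratio of 5.93, the widest of the 5 genes.

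Fam65b had the lowest values and the most overlap between times. Its livers had 2.32, 2.30 and 1.77 at ZT1, 3.59, 3.83 and 5.28 at ZT5, and 2.16, 3.49 and 4.07 at ZT9. In the dark they had 1.19, 0.765 and 1.61 at ZT13, 2.23, 2.65 and 3.97 at ZT17, and 4.30, 4.60 and 3.79 at ZT21. ZT13 lay below all other times, and ZT1 lay below ZT5 and ZT21. Other neighbours in the order ZT21, ZT5, ZT9, ZT17 and ZT1 overlapped. The means ran from 4.23 ± 0.412 (SD, n = 3) at ZT21 to 1.19 ± 0.422 at ZT13, a ratio of 3.56. Its coefficient of variation within a time was between 9.74% and 35.5%, against 6.62% to 18.7% for P4ha1 and 14.9% to 39.1% for Bmf.

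In a whole liver, fewer cells of a type and less RNA per cell cannot be told apart. The sum of the 8 Kupffer cell markers was between 127 and 245 at ZT1, 209 and 278 at ZT5, 214 and 260 at ZT9, 198 and 258 at ZT13, 106 and 248 at ZT17, and 107 and 168 at ZT21. All of these sums at ZT21 lay below those of ZT5, ZT9 and ZT13. The sums of the 8 sinusoidal endothelial cell markers were between 149 and 221 at ZT21. They lay below those of ZT5, 257 to 317, and of ZT9, 234 to 294. The part of these cells in the values was not tested.

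To describe the shape of the day, a model with a 24 h and a 12 h cosine curve was fitted with limma to log2(value + 1) of each of the 14449 genes above the floor in at least 1 liver. The amplitude is the height of a curve above its middle on that log2 scale, and the crest is the hour of its top. The 12 h amplitude was 0.72 ± 0.06 (SE) for P4ha1, 0.64 ± 0.07 for Banp, 0.54 ± 0.08 for Fam65b, 0.83 ± 0.11 for Bmf and 0.59 ± 0.08 for Crebrf. From crest to trough these curves span 2.72-fold for P4ha1 and 3.16-fold for Bmf, in value + 1. By the 12 h F statistic P4ha1 ranked 1, Banp 5, Bmf 10, Crebrf 11 and Fam65b 22 of the 14449 genes. By the 12 h amplitude alone P4ha1 ranked 18, Banp 29, Bmf 7, Crebrf 46 and Fam65b 60. The 12 h crests were at 1.64 h for P4ha1 and 1.51 h for Banp. Those of Fam65b, Bmf and Crebrf were at 7.11 h, 7.87 h and 8.41 h, respectively. The form of the fitted 12 h curve sets a further crest 12 h later. A once-daily wave that is not a cosine can also give a 12 h term, and which of these applied was not tested. With samples 4 h apart, a 12 h curve cannot be told apart from one of 6 h, and each of the 2 cycles of the day was sampled once, in different mice.

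**Figure D2:**
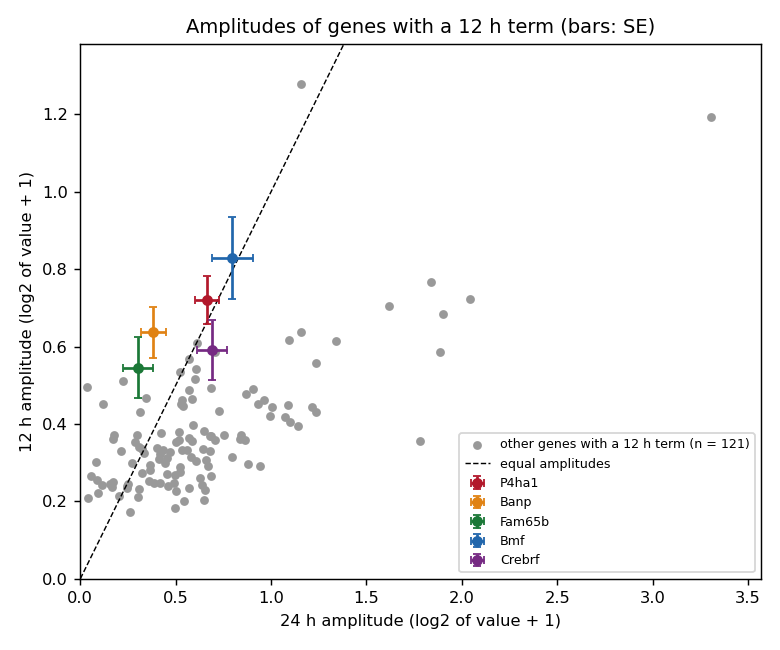
12 h amplitude against 24 h amplitude (y and x axes, log2 of value + 1) of the 126 genes past the 12 h term, with the 5 genes in colour with SE bars and a dashed line where both are equal. Of the 5 genes, Crebrf lies below the line and the others above it, P4ha1 and Bmf by less than their SE.

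In limma, 126 of all genes (0.872%) passed the 12 h term (Benjamini-Hochberg, threshold 0.05), and all 5 genes were among them, as the choice of the genes fixed. Among the 121 others, 49 had their first crest between 0 and 3 h and 50 between 6 and 9 h, with 7 between 3 and 6 h and 15 between 9 and 12 h. The 5 genes lay in the 2 well-filled ranges, P4ha1 and Banp in the first and Fam65b, Bmf and Crebrf in the second. Over all genes the median 12 h amplitude was 0.09. The count of 126 was sensitive to single livers and lay between 32 and 114 with 1 liver left out. In 29 of the 126 genes the 12 h amplitude was the larger one, and these include 4 of the 5 genes, whose choice by the 12 h term favours this. The ratios of 12 h to 24 h amplitude were 1.81 for Fam65b, 1.67 for Banp, 1.09 for P4ha1, 1.04 for Bmf and 0.857 for Crebrf. For P4ha1 (0.72 ± 0.06 against 0.66 ± 0.06, SE) and Bmf (0.83 ± 0.11 against 0.80 ± 0.11) the amplitudes differed by less than their SE.

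**Figure D3:**
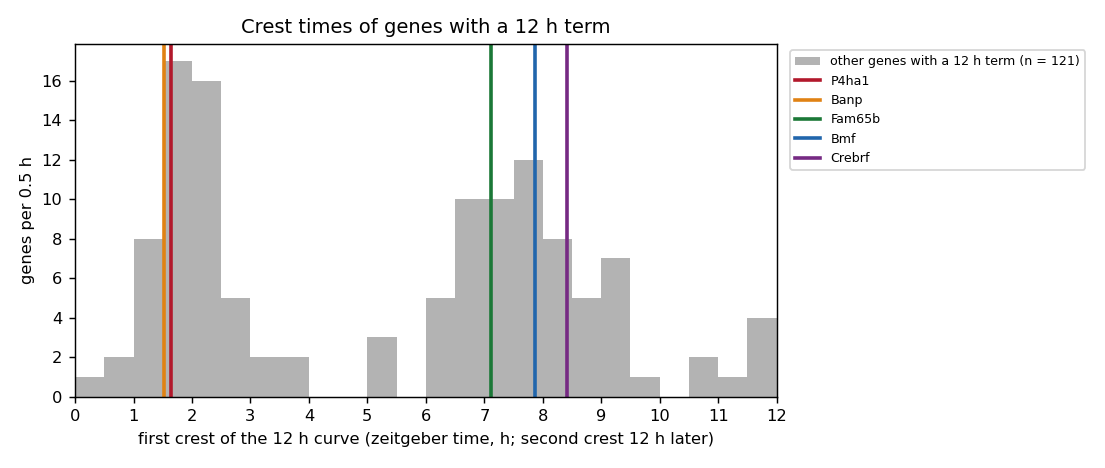
Number of genes per 0.5 h (y axis) by the first crest of the 12 h curve in hours (x axis) for the other 121 genes past the 12 h term, with the 5 genes as coloured lines. Of the 121 genes, 49 lie between 0 and 3 h and 50 between 6 and 9 h.

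Depth had a 12 h shape of its own, with median totals of 15184364 reads at ZT17 and 14378658 at ZT5 and between 10540312 and 12219597 at the other times. The log2 total had a 12 h amplitude of 0.22 with a crest at 4.38 h. With the log2 total as a covariate, the 12 h amplitudes were 0.73 for P4ha1, 0.64 for Banp, 0.54 for Fam65b, 0.81 for Bmf and 0.54 for Crebrf.

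The 24 h curve was fitted beside the 12 h curve and is independent of it at equally spaced times, although both share 1 estimate of the residual spread. All 5 genes also passed the 24 h term in limma, against 37.0% of all genes tested. So did 115 of the 126 genes past the 12 h term, the 5 genes included. Passing the 24 h term thus did not set the 5 genes apart from others past the 12 h term. Bmf had a 24 h amplitude of 0.80 ± 0.11 (SE) with a crest at 6.40 h (adjusted P = 0.000107), Crebrf 0.69 ± 0.08 at 2.54 h (adjusted P = 1.88e-05) and Fam65b 0.30 ± 0.08 at 1.32 h (adjusted P = 0.0200). P4ha1 had 0.66 ± 0.06 with a crest at 16.1 h (adjusted P = 3.07e-06) and Banp 0.38 ± 0.07 at 15.7 h (adjusted P = 0.00104). The daily component of P4ha1 and Banp was highest in the dark, and that of the other 3 genes in the light. Without ZT13 replicate 2, Fam65b had an amplitude of 0.26 and no longer passed (adjusted P = 0.0584). JTK, a rank test for rhythms of 20 to 28 h, called 0 of the 5 genes against 18.4% of all genes, with adjusted P from 0.0865 for P4ha1 to 0.788 for Banp. Times equally far from the crest of a cosine tie, but P was read from a distribution without such ties. The test was therefore strict, and the lack of JTK calls does not show that a daily rhythm was absent.

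Whether both cycles of the day reached the same level was asked by comparing times 12 h apart, at which a 12 h curve has the same value. The P values use the spread between livers of a time, which was also part of the statistic that chose the genes, so they are not fully independent of that choice. The same holds for the 24 h term. A 24 h curve has opposite values 12 h apart, so these differences hold it in full and are no separate test from the 24 h result above. Of 15 differences, 7 passed in limma, 3 higher and 4 lower at the dark time. At ZT13 against ZT1, the high hours of P4ha1 and Banp, 14.2% of all genes passed, 6.80% higher and 7.42% lower in the dark. P4ha1 was 0.81 ± 0.15 (SE) higher at ZT13 on the log2(value + 1) scale (adjusted P = 0.00204), that is 28.5 against 15.7 in the means, so its evening crest was the higher one. Banp was 0.37 ± 0.14 higher and did not pass (adjusted P = 0.0885), and without ZT13 replicate 3 the difference was 0.51 and passed (adjusted P = 0.0250). Crebrf fell by 1.37 ± 0.19 from ZT1 to ZT13 (adjusted P = 0.000201), while Fam65b, at -0.53 ± 0.20 (adjusted P = 0.0867), and Bmf, at -0.38 ± 0.26 (adjusted P = 0.380), did not pass.

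At ZT17 against ZT5, 19.7% of all genes passed, 9.26% higher and 10.5% lower, and 4 of the 5 genes differed. P4ha1 was 1.40 ± 0.15 (SE) higher at ZT17 (adjusted P = 2.13e-05) and Banp 0.93 ± 0.14 higher (adjusted P = 0.000307), with means 2.88 and 2.09 times those of ZT5. Bmf and Crebrf were lower at ZT17, with log2 differences of -1.36 ± 0.26 (adjusted P = 0.00213) and -1.0 ± 0.19 (adjusted P = 0.00183). For Fam65b the difference was -0.42 ± 0.20 (adjusted P = 0.153), with a 95% interval from -0.83 to 0.00.

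At ZT21 against ZT9, 10.7% of all genes passed, 5.63% higher and 5.07% lower, and Bmf was the one gene of the 5 that did, with a log2 difference of -1.37 ± 0.26 (SE, adjusted P = 0.00332) and a mean at ZT21 of 0.367 times that at ZT9. For the others the differences were 0.27 ± 0.15 for P4ha1 (adjusted P = 0.276), 0.33 ± 0.20 for Fam65b (adjusted P = 0.321), 0.06 ± 0.19 for Crebrf (adjusted P = 0.876) and -0.07 ± 0.14 for Banp (adjusted P = 0.803). The 95% intervals of the last 2 were -0.34 to 0.46 and -0.36 to 0.22. Crebrf thus had means of 42.3 and 40.6 at its high hours ZT21 and ZT9, while Bmf had 8.93 and 24.3.

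**Figure D4:**
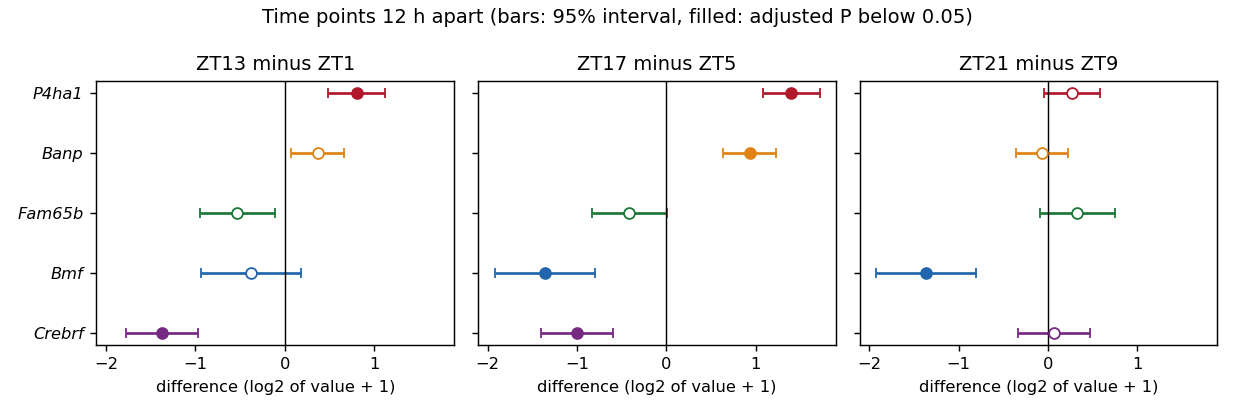
Differences between times 12 h apart (x axis, log2 of value + 1, dark minus light) for the 5 genes, with bars for the 95% intervals of limma and filled points where the adjusted P was below 0.05. P4ha1 and Banp lie above 0 at ZT17 against ZT5, Bmf and Crebrf lie below it, and at ZT21 against ZT9 the interval of Bmf alone leaves out 0.

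Whether the genes also varied together among mice of the same time was asked with the deviations of the 18 livers from the mean of their time, which hold no part of the 12 h curve. None of the 10 pairs passed an exact two-sided permutation test within times after Benjamini-Hochberg adjustment over the pairs, and 3 had an unadjusted P under 0.05. Bmf and Crebrf deviated in the same direction, with Pearson r = 0.71 (exact permutation P = 0.00913, adjusted P = 0.0913) and Spearman rho = 0.57 (exact permutation P = 0.0359). P4ha1 and Fam65b deviated in opposite directions, with r = -0.71 (exact permutation P = 0.0190, adjusted P = 0.0948) and rho = -0.67 (exact permutation P = 0.0277). Fam65b and Bmf had r = 0.60 (exact permutation P = 0.0407, adjusted P = 0.136) and rho = 0.63 (exact permutation P = 0.0235). Without the 2 livers farthest from the median of the first gene, these r were 0.62, -0.59 and 0.44. P4ha1 and Banp, the pair most alike over the day, had r = 0.34 within times (exact permutation P = 0.339, adjusted P = 0.461), and 0.04 without the 2 farthest livers. Single livers decided these calls. Without ZT5 replicate 1, P4ha1 and Banp had r = 0.79 (exact permutation, adjusted P = 0.0293), and Bmf and Crebrf passed without that liver, ZT1 replicate 3, ZT9 replicate 1 or ZT9 replicate 3. Without ZT1 replicate 3, P4ha1 and Fam65b passed as well.

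Over all 18 livers, in which the time of day is shared by the points, P4ha1 and Banp had r = 0.93 in log2(value + 1), and P4ha1 had r = -0.83 with Fam65b, -0.87 with Bmf and -0.86 with Crebrf. The genes most like each of the 5 over the 18 livers, out of 12480 with a mean value of at least 1, were read off in the same way. For P4ha1 these were Banp, Chordc1 (r = 0.93) and Zfp9 (r = 0.92). Chordc1 encodes a co-chaperone of HSP90, and its means were 48.9 at ZT1, 26.0 at ZT5, 69.9 ± 7.25 (SD, n = 3) at ZT13 and 68.4 at ZT17. For Banp they were P4ha1, Rps7 (r = 0.89), a ribosomal protein gene, and Hspa1b (r = 0.88), an inducible HSP70 chaperone with a mean of 127.6 ± 60.6 at ZT13 and 7.86 at ZT21. Rps7 moved little, from 163.6 at ZT9 to 197.3 at ZT13.

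For Crebrf the most similar genes were Kdm3a (r = 0.95), a histone H3 lysine 9 demethylase, Camk2g (r = 0.92), a calcium-dependent kinase subunit, and Pcmtd2 (r = 0.92). Kdm3a, which is also a known hypoxia target, ran from 10.9 ± 1.89 (SD, n = 3) at ZT13 to 23.5 ± 2.10 at ZT5. For Bmf they were Lgr4 (r = 0.91), a receptor for R-spondins, Pcgf3 (r = 0.90), a Polycomb ring finger protein, and Pkdrej (r = 0.90). For Fam65b they were Zbtb37 (r = 0.86), 2610044O15Rik8 (r = 0.82) and Cradd (r = 0.80), an adaptor with a death domain. These are likenesses of level over the same livers and carry no test.

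The pathways around the 5 genes were read from 7 lists with 121 genes in the table, the 5 genes left out. The 12 h term was passed by 3 of them (2.48%), against 0.872% of all genes, and the 24 h term by 65 (53.7%), against 37.0% of all genes. The median 12 h amplitude was 0.11 over the listed genes and 0.09 over all genes, and the median 24 h amplitude 0.21 and 0.16. Unadjusted P values under 0.05 for the 12 h term in limma, given for some lists below, were found for 1815 of all 14449 genes. The 3 genes no longer passed with a pseudocount of 0.1 or with depth as a covariate, where the count was 0. The lists were chosen with earlier results known and are described by these counts alone.

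**Figure D5:**
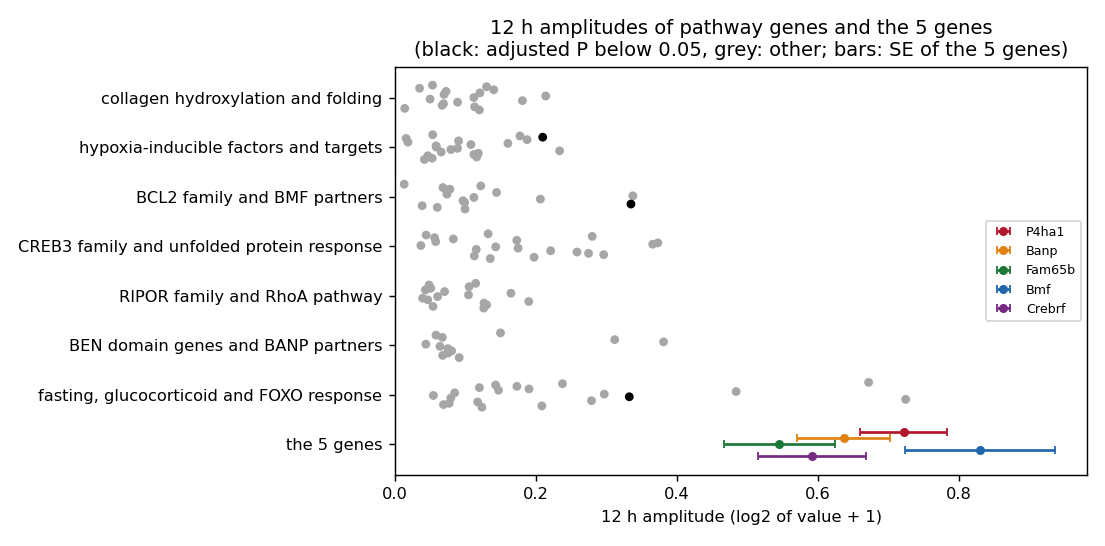
12 h amplitude (x axis, log2 of value + 1) of the genes of each of the 7 pathway lists (rows), with the 5 genes in the last row with SE bars. Black points passed the 12 h term in limma and grey ones did not. Arnt, Dynll1 and Klf9 are the 3 listed genes that passed.

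In collagen hydroxylation and folding, the pathway of P4ha1, 17 of 19 listed genes were in the table, 0 passed the 12 h term (1 at an unadjusted P under 0.05, P3h4, amplitude 0.21, adjusted P = 0.337 in limma) and 6 passed the 24 h term, 5 with a crest in the dark. P4ha2, the other alpha subunit in the table, had a 24 h amplitude of 0.52 ± 0.09 (SE) with a crest at 15.7 h (adjusted P = 0.00112 in limma), close in hour to that of P4ha1, and a 12 h amplitude of 0.11 (adjusted P = 0.816). Its means were 9.29 ± 0.240 (SD, n = 3) at ZT17 and 3.18 ± 0.309 at ZT5. P4hb, the beta subunit shared by both enzymes and named here after its values were seen, had a 12 h amplitude of 0.05 and means of 1486 ± 18.1 at ZT17 and 1089 ± 72.6 at ZT5. Bmp1, which cleaves the end of procollagen, passed the 24 h term with 0.35 and a crest at 19.1 h (adjusted P = 0.000252), and Plod1, a lysyl hydroxylase, with 0.26 (adjusted P = 0.000422).

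Of the hypoxia-inducible factors and targets, all 21 were in the table, 1 passed the 12 h term and 12 the 24 h term, 5 with a crest in the light and 7 in the dark. Arnt, the partner of both hypoxia-inducible alpha subunits, was the one with a 12 h term, of 0.21 ± 0.04 (SE) with a crest at 11.5 h (adjusted P = 0.0479 in limma). Its means were 45.5 ± 3.35 (SD, n = 3) at ZT1, 33.3 ± 2.71 at ZT5 and 43.9 ± 3.93 at ZT9. In the dark they were 44.9 ± 1.15 at ZT13, 37.2 ± 2.52 at ZT17 and 40.6 ± 2.26 at ZT21. The targets did not share 1 hour. Ndrg1 had a 24 h amplitude of 1.23 ± 0.10 (adjusted P = 3.93e-07) and was higher in the light, 31.2 ± 6.02 at ZT1 against 5.44 ± 1.49 at ZT13. Bnip3, a mitophagy receptor, had 0.49 (adjusted P = 6.40e-06) and was higher at ZT13, 276.4 ± 19.7, than at ZT1, 125.8 ± 5.52. Ddit4, an inhibitor of mTORC1, had 0.95 (adjusted P = 2.40e-06).

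Among the BCL2 family and the partners of BMF, 16 of 18 genes were in the table, 1 passed the 12 h term and 6 the 24 h term, 3 in each of light and dark. The one was Dynll1, a dynein light chain that holds the BH3-only protein BIM, with a 12 h amplitude of 0.33 ± 0.06 (SE) and a crest at 2.53 h (adjusted P = 0.0440 in limma), against 7.87 h for Bmf. Its 24 h amplitude was 0.64 ± 0.06 with a crest at 17.8 h (adjusted P = 5.48e-06), and its means were 19.3 ± 2.06 (SD, n = 3) at ZT17 and 6.39 ± 1.54 at ZT9. Bcl2l11, which encodes BIM, had a 24 h term of 0.42 with a crest at 8.06 h (adjusted P = 0.000668) and a 12 h term of 0.34 that did not pass (adjusted P = 0.0595), with means of 6.92 ± 0.807 at ZT9 and 2.95 ± 0.704 at ZT1. Bok, a BAX-like effector, had a 24 h term of 0.54 (adjusted P = 4.54e-05). Dynll2, the light chain that holds BMF and named here after its values were seen, had a 12 h amplitude of 0.04 (adjusted P = 0.830).

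Of the CREB3 family and unfolded protein response, the setting of Crebrf, 20 of 21 genes were in the table. The 12 h term was passed by 0 (8 at an unadjusted P under 0.05 in limma, against 1815 of all 14449 genes). The 12 h crests of these 8 lay between 0.957 h (Manf) and 2.37 h (Herpud1), against 8.41 h for Crebrf. The 24 h term was passed by 14, 12 with a crest in the dark. Atf6b came closest, with a 12 h amplitude of 0.28 and a crest at 1.77 h (adjusted P = 0.0579 in limma). Herpud1, a factor of endoplasmic reticulum protein breakdown, had a 24 h amplitude of 0.58 with a crest at 12.0 h (adjusted P = 1.96e-05) and means of 430.3 ± 63.7 (SD, n = 3) at ZT13 and 168.2 ± 27.5 at ZT21. Hspa5, the chaperone BiP, had 0.65 with a crest at 16.6 h (adjusted P = 3.93e-05) and means of 1576 ± 370.2 at ZT17 and 531 ± 48.4 at ZT5, and Manf had 0.76 at the same hour (adjusted P = 4.99e-05). Crebrf itself was lowest at ZT13 and ZT17. Creb3, the protein partner of CREBRF and named after its values were seen, had a 12 h amplitude of 0.06 (adjusted P = 0.795) and a 24 h amplitude of 0.14 (adjusted P = 0.0371).

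Of the RIPOR family and the RhoA pathway, all 16 genes were in the table, 0 passed the 12 h term and 0 had an unadjusted P under 0.05. The lowest was that of Diaph1, with a 12 h amplitude of 0.10 (adjusted P = 0.412 in limma). For the 24 h term 6 passed, 4 with a crest in the light, among them Arhgef12, a RhoA exchange factor, with 0.30 and a crest at 6.10 h (adjusted P = 3.93e-05) and means of 170.2 ± 13.0 (SD, n = 3) at ZT5 and 112.6 ± 8.75 at ZT17. Diaph1, a formin that acts below RhoA, had a 24 h amplitude of 0.21 (adjusted P = 0.00236) and Rock1, a RhoA kinase, 0.17 (adjusted P = 0.0197). The relatives of Fam65b, named after their values were seen, had 12 h amplitudes of 0.06 (Fam65a, adjusted P = 0.852) and 0.04 (Fam65c, adjusted P = 0.976). Of the BEN-domain genes and partners of BANP, 12 of 14 were in the table, 0 passed the 12 h term, with 0 at an unadjusted P under 0.05, and 5 passed the 24 h term. Sin3a, a corepressor, had a 24 h amplitude of 0.25 (adjusted P = 3.35e-05), and Cdkn1a, the cell cycle inhibitor p21, had 1.7 ± 0.17 with a crest at 19.3 h (adjusted P = 6.47e-06) and means of 16.1 ± 4.45 at ZT21 and 0.501 ± 0.341 at ZT9. Trp53, which encodes p53, had 0.27 (adjusted P = 0.00486).

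Of 20 genes that respond to fasting, glucocorticoids or FOXO factors, all in the table, 17 passed the 24 h term, 14 with a crest in the light, and 1 the 12 h term. It was Klf9, a glucocorticoid-induced transcription factor, with a 12 h amplitude of 0.33 ± 0.06 (SE) and a crest at 8.24 h (adjusted P = 0.0460 in limma), against 7.87 h for Bmf and 8.41 h for Crebrf. Its means were 82.9 ± 7.88 (SD, n = 3) at ZT5 and 34.7 ± 1.18 at ZT17. Irs2, an insulin receptor substrate, had a 24 h amplitude of 1.11 ± 0.12 with a crest at 0.191 h (adjusted P = 1.99e-05), and Ccng2, a FOXO target, 0.76 with a crest at 23.0 h (adjusted P = 4.35e-06). Pck1, which encodes the gluconeogenic enzyme PEPCK and was named after its values were seen, had a 12 h amplitude of 0.72 ± 0.17 that did not pass (adjusted P = 0.10).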

How the data were processed

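Per the labels and the study's methods, the authors removed adapters with Cutadapt, mapped reads on the GRCm38 transcriptome, quantified them with RSEM 1.2.20 and normalized the estimated counts with limma. What they deposited is a linear signal: 0.5 was added to every estimated count, and the sum was scaled to 1000000 reads of an adjusted library total. Reads behind a value were recovered from the floor of its liver, at which no read was counted. The 5 genes, the pathway lists and the motifs were chosen with earlier results of these data known.

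In limma 3.58.1 (R 4.3.3), log2(value + 1) of 14449 genes was fitted over all 18 livers with 24 h and 12 h terms together, or with 6 time means for the differences 12 h apart, with Benjamini-Hochberg adjustment over all genes and a threshold of 0.05. A fold change on this scale understates that of low genes. JTK used periods of 20, 24 and 28 h and a distribution that did not allow for ties within the cosine, which made it strict. Correlations within times used all 46656 arrangements of livers within times. Named genes were the 5 genes, the listed genes with the smallest P of each term (up to 3 past the threshold, or 1 where none passed), the 3 most correlated genes of each, and clock genes. Genes outside this rule are marked in the text. Cell type marker lists were summed per liver, for sinusoidal endothelial cells between 146 and 317, stellate cells 177 and 301, cholangiocytes 31.5 and 57.5, erythroid cells 108 and 674, and neutrophils (2 of 5 markers) 0.246 and 2.24. A lymphocyte marker list is not reported here. The scripts were tested on simulated data. Other steps ran in Python 3.11.15 (scipy 1.17.1, pandas 2.3.3). Alternatives were another pseudocount, filter, scaling, variance prior and rhythm test, a depth covariate, an added term and leaving out each liver.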

Additional observations from a re-analysis of the deposited data

How the results depend on the processing

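The 12 h amplitudes of the 5 genes with 1 liver left out were 0.69 to 0.77 for P4ha1, 0.60 to 0.69 for Banp, 0.51 to 0.59 for Fam65b, 0.77 to 0.88 for Bmf and 0.55 to 0.63 for Crebrf. With a pseudocount of 0.1 in place of 1, genes past the 12 h term numbered 76 in place of 126, and listed genes past it 0 in place of 3. Listed genes past it numbered 5 among genes with a mean of at least 1, and 0 with the depth covariate. By JTK, which was strict because ties within the cosine were not allowed for, 2655 genes passed in place of 5343. Of the 5 genes, 0 passed in place of 5. Leaving out 1 liver at a time gave 32 to 114 genes past the 12 h term, 4815 to 5155 past the 24 h term, 4 to 5 of the 5 genes past the 24 h term, 0 to 3 listed genes past the 12 h term and 59 to 65 past the 24 h term, 7 to 8 of the differences 12 h apart, and 0 to 2 correlated pairs. Except for ZT5 replicates 1 and 3, ZT13 replicate 3 and ZT17 replicates 1 and 2, leaving out any liver lowered the count of genes past the 12 h term by more than 1.5 times, to 32 without ZT1 replicate 2. The count of listed genes moved likewise, except without ZT13 replicate 3 or ZT17 replicate 2. For ZT21 against ZT9, a difference that did not pass, the values ran from -0.078 to 0.17 for Crebrf, negative without ZT9 replicate 3 or ZT21 replicate 2, and from -0.13 to 0.038 for Banp, positive without ZT21 replicate 1. Other differences that did not pass moved by more than 1.5 times as well: for Fam65b, ZT21 against ZT9 was 0.13 without ZT9 replicate 1, and ZT13 against ZT1 was -0.84 with a pseudocount of 0.1, and for Bmf, ZT13 against ZT1 was -0.58 without ZT13 replicate 3. For ZT21 against ZT9, rescaled totals and the depth covariate gave 0.015 and 0.15 for Crebrf, and both -0.11 for Banp. No paired analysis was possible because each mouse has its own number and the times share none in the labels. One day of sampling with 3 livers at each time sets the precision, and at a depth of 10268168 to 23242842 reads the lowest value, 10.7 reads for Fam65b, carries the most counting error.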
